A study of Rattus norvegicus with 6 samples.

Results

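Myelin and oligodendrocyte genes were followed in brain tissue of young and aged male Sprague-Dawley rats, naive or after a stroke, on 6 Affymetrix whole-transcript arrays. The 9 genes are Mbp, Mog, Mag, Mobp, Cnp, Mal, Ermn, Hapln2 and Opalin. They were chosen by name, each as the probe set (the group of probes that gives 1 value) with exactly 1 annotated symbol and the highest mean, among 14497 genes with such a probe set. All 9 were measured, and all 9 were among the 10947 genes that passed a filter on low values and were tested. Each of the 9 lay above the 40th percentile of every array.

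The 6 groups were young naive rats (3 to 5 months old, 15 animals), aged naive rats (18 to 20 months, 15 animals), and young (3 to 4 months, 19 animals at each time) and aged (19 to 20 months, 23 animals at each time) rats at 3 d or 14 d after an infarct made by transiently lifting the middle cerebral artery. Each group was 1 pool of RNA on 1 array. The stroke arrays hold microdissected tissue from around the infarct, and the naive arrays hold healthy brain whose region the labels do not name. All values are log2 expression values, and a change of 1 is a doubling on that scale.

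Oligodendrocytes wrap axons of the central nervous system in myelin, a stack of membrane that speeds conduction and supports the axon. Compact myelin is held together by proteins such as myelin basic protein, while other proteins sit on its outer face, next to the axon, or in the uncompacted cytoplasmic channels. Oligodendrocytes are sensitive to loss of blood flow, and new ones arise from precursor cells that divide and mature in steps. In bulk tissue, fewer cells of a type and less RNA per cell cannot be told apart.

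Array medians lay between 7.09 and 7.15, and Pearson correlations between arrays over 28826 probe sets ranged from 0.962 to 0.995. Neuronal markers were high on every array (mean of 8 genes 10.84 to 11.46), and the 9 myelin genes, which define oligodendrocytes, had a mean of at least 10.50 on each. The aged naive array stood apart from the young naive array in regional markers: the mean of 6 thalamic genes was 8.28 against 7.55, and that of 7 striatal genes 9.61 against 10.10. On the stroke arrays the thalamic mean was 6.94 to 7.29 and the striatal mean 8.49 to 9.09. For the 9 genes the values of all arrays and the median of the young pair, which does not use the aged naive array, are therefore given, and for the related lists the count with that array dropped. The part of the regional difference in the results was not tested.

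Promoter sequences of 4 of the genes are shown because their RNA levels behaved differently: Opalin had the largest fitted fall of the 9 at 3 d, Mobp just missed the threshold, Mag was close to its naive level, and Hapln2 differed most between the ages. Each run is the 250 bases before the RefSeq start site in assembly GRCr8, 5′ to 3′ on the gene's strand. Capitals mark matches on either strand to AACAANG (a SOX-type motif), CAGCTG (an E-box of the kind OLIG factors bind) or CTGGNAC (the motif of MYRF, the factor that switches on myelin genes).
Opalin (chr1:249858191-249858440, minus strand): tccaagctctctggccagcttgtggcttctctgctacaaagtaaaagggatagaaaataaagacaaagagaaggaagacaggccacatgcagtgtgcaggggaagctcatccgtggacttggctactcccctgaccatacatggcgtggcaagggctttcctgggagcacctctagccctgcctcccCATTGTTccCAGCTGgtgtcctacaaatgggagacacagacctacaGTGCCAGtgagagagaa
Mobp (chr8:128746982-128747231, plus strand): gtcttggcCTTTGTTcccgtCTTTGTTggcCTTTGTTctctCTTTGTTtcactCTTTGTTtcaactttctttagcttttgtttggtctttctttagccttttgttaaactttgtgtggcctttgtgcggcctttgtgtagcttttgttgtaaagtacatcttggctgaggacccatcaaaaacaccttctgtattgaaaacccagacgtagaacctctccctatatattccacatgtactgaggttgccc
Mag (chr1:95291045-95291294, minus strand): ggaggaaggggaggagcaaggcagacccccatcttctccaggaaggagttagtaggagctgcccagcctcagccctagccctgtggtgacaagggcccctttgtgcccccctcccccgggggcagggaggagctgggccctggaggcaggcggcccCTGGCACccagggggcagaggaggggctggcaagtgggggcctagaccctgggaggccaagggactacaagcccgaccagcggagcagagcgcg
Hapln2 (chr2:175794439-175794688, minus strand): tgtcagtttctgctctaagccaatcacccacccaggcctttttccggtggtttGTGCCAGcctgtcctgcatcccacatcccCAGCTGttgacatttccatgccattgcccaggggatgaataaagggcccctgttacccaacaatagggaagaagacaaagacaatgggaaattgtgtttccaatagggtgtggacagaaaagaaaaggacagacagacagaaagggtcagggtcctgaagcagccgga

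The Opalin window holds 1 match to each of the 3 motifs, with no overlap between them, the Mobp window 5 SOX-type matches, the Mag window 1 MYRF match, and the Hapln2 window 1 E-box and 1 MYRF match. RefSeq gave windows for 7 of the 9 genes, Mog and Ermn being the exceptions, and 2 start sites for Mbp. Over whole windows of 300 bases (250 before and 50 after the start), the MYRF motif was found in 6 of the 7 genes (Cnp, Hapln2, Mag, Mal, Mbp and Opalin) and in 18.2% of 33469 windows of all genes. The SOX-type motif was found in 4 of 7 (Cnp, Mbp, Mobp and Opalin) against 14.5%, and CAGCTG in 4 of 7 (Cnp, Hapln2, Mbp and Opalin) against 15.1%. These shares count windows and not genes. By window, the MYRF, SOX-type and CAGCTG motifs were found in 6, 4 and 4 of the 8 windows of these genes. For Mbp, 1 window held only a MYRF match and the other only SOX-type and CAGCTG matches. A match is a description of letters and not a measured binding site.

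The first comparison set tissue bordering the infarct at 3 d against naive brain. Opalin, Ermn, Mal and Mog fell, and the other 5 did not pass the test. None rose. In the limma fit, which takes the young and aged arrays as repeated measures of a time effect, 4 of 9 genes were lower, where 7.87% of all tested genes were lower. Their median change was -0.40, against -0.03 over all tested genes. In 7 of 9 the 2 arrays at 3 d both lay below the 2 naive arrays, and in none above. Over all genes 38.1% lay below and 33.8% above in this way, 71.9% in either direction. The median change was -0.49 in the young pair and -0.33 in the aged pair of arrays. Markers of other cells moved on the same arrays: 6 of 6 microglial genes rose at both times (medians 1.33 and 1.52), 3 of 5 endothelial genes at both times, and 2 of 6 astrocyte genes at 3 d and 4 of 6 at 14 d. Among all tested genes 14.4% rose at 3 d and 13.6% at 14 d. The astrocyte medians were 0.24 and 0.45, from Slc1a2 (-0.23 and -0.20) to Gfap (1.86 and 1.62). The mean of the microglial genes was 8.52 to 8.85 on the naive and 10.19 to 10.75 on the stroke arrays, that of the endothelial genes 8.26 to 8.31 and 8.54 to 8.98, and that of the astrocyte genes 10.53 to 10.75 and 11.05 to 11.19. Their part in the fall of the myelin genes was not tested. The 4 calls at 3 d became 0 when the young naive, the aged naive or the young 3 d array was dropped, and 2 (Opalin and Ermn) when the aged 3 d array was dropped. The share of all genes called in either direction then also went from 22.2% to 10.2%, 6.81%, 9.59% and 15.6%.

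**Figure D1:**
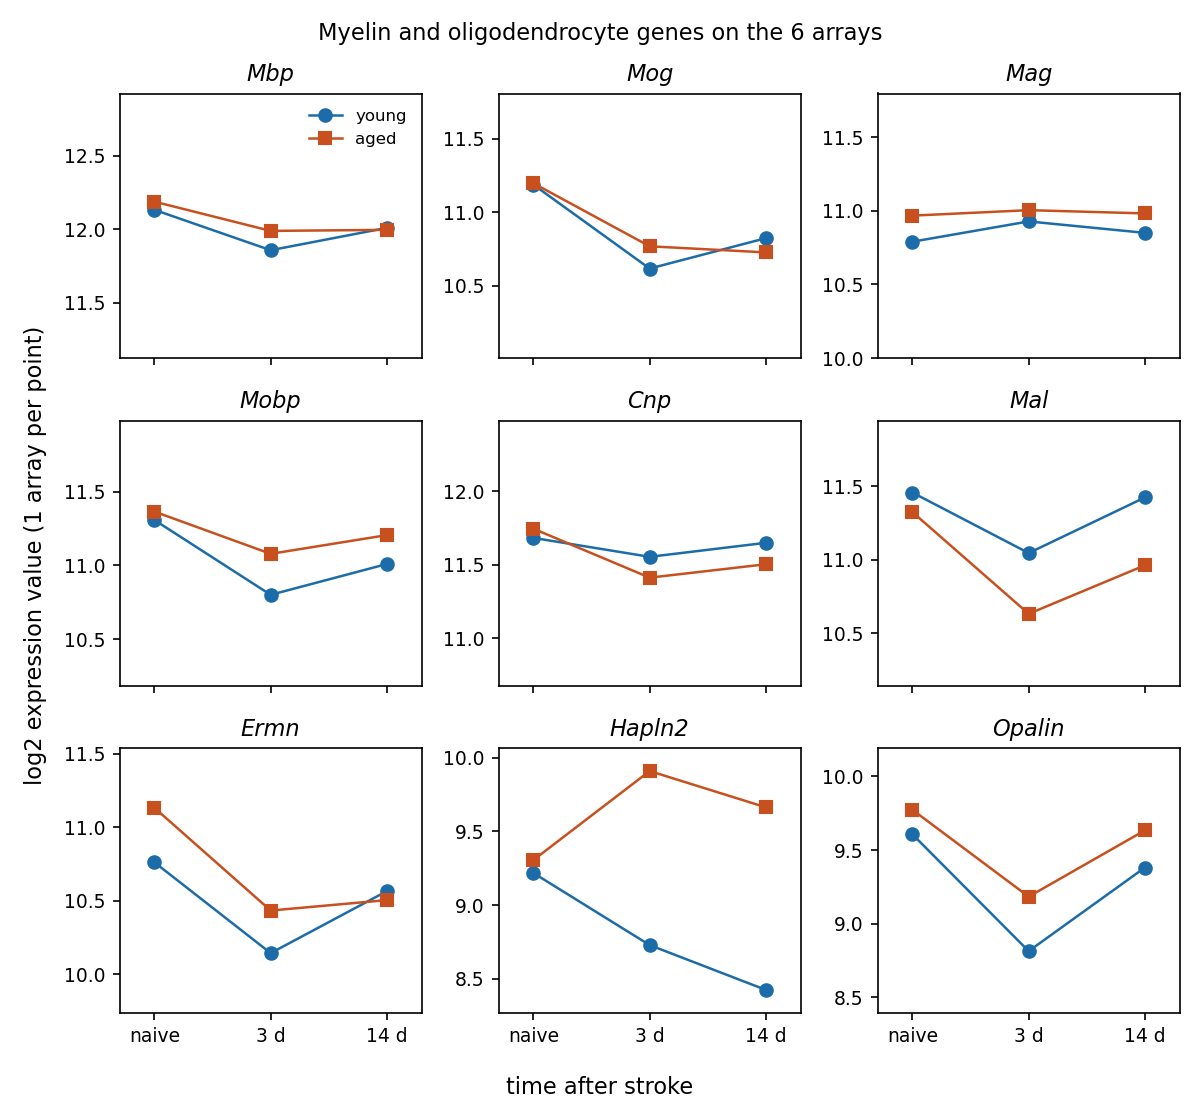
Log2 expression value (vertical axis, each panel spanning the same range of 1.8) of each gene on the naive, 3 d and 14 d arrays (horizontal axis), with young rats as circles and aged rats as squares, 1 array per point and no error bar. Opalin, Ermn, Mal and Mog are lower at 3 d than in naive rats in both ages, Mag stays at or above 10.79, and the ages of Hapln2 part after stroke.

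Among proteins of compact myelin, Mbp (myelin basic protein, which joins the cytoplasmic faces of the membrane) was at 12.13 in young and 12.19 in aged naive rats, 11.86 and 11.99 at 3 d, and 12.01 and 11.996 at 14 d. All 4 stroke arrays lay below both naive arrays, but by little: the change at 3 d was -0.24 ± 0.12 (SE, 2 arrays per time point; adjusted p = 0.191). A second Mbp probe set went the other way, with 8.49 and 8.44 in naive rats, 8.76 and 8.61 at 3 d and 8.52 and 8.46 at 14 d, so the direction for Mbp rests on the choice of probe set. The mean of both changed by -0.01 at 3 d.

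Mobp, another structural protein of compact myelin, was at 11.31 in young and 11.37 in aged naive rats, 10.80 and 11.08 at 3 d, and 11.01 and 11.21 at 14 d. The stroke arrays were all below the naive ones, and the young 3 d array was the lowest. Its change at 3 d was -0.40 ± 0.12 and just missed the threshold (adjusted p = 0.0559). It passed with arrays brought to equal medians, with quantile normalization, with a stricter filter, with trended and robust variances and without either 14 d array.

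Mal, a proteolipid that sorts proteins and lipids into the myelin membrane, was at 11.46 in young and 11.32 in aged naive rats, 11.05 and 10.63 at 3 d, and 11.42 and 10.96 at 14 d. It fell by 0.55 ± 0.13 at 3 d, a 1.47-fold change (adjusted p = 0.0240). At 14 d the young array was back within the range of the naive arrays and the aged array was not. The call of Mal at 3 d was also lost in a model with no term for age.

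On the myelin surface, Mog (myelin oligodendrocyte glycoprotein, on the outermost layer) was at 11.19 in young and 11.20 in aged naive rats. It was at 10.62 and 10.77 at 3 d and at 10.82 and 10.73 at 14 d. All 4 stroke arrays lay apart from and below the naive arrays, and Mog was the only gene of the 9 that passed at both times. It fell by 0.50 ± 0.12 at 3 d (1.41-fold, adjusted p = 0.0275) and by 0.42 ± 0.12 at 14 d (1.33-fold, adjusted p = 0.0462).

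Mag, the myelin-associated glycoprotein of the layer next to the axon, which also stops axons from growing, did not follow. It was at 10.79 in young and 10.97 in aged naive rats, 10.93 and 11.005 at 3 d, and 10.85 and 10.98 at 14 d, with stroke and naive arrays overlapping. Its change at 3 d was 0.09 ± 0.12 (adjusted p = 0.617), and the 95% interval of -0.19 to 0.36 leaves out falls as large as those fitted for Mog, Mal, Ermn and Opalin.

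In the cytoplasmic channels of myelin, Cnp (an enzyme that marks uncompacted myelin) was at 11.68 in young and 11.74 in aged naive rats, 11.55 and 11.41 at 3 d, and 11.65 and 11.50 at 14 d. The stroke arrays were lower than the naive ones throughout, by -0.23 ± 0.12 at 3 d (adjusted p = 0.217). Ermn, the actin-associated protein ermin of mature oligodendrocytes, was at 10.76 and 11.13 in naive rats, 10.14 and 10.43 at 3 d, and 10.57 and 10.50 at 14 d. It fell by 0.66 ± 0.14 at 3 d, a 1.58-fold change (adjusted p = 0.0161), and changed by -0.41 ± 0.14 at 14 d (adjusted p = 0.0729). The 14 d change of Ermn passed with arrays brought to equal medians, with trended and robust variances and without the young 14 d array.

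Opalin, a sialylated membrane glycoprotein made by oligodendrocytes, had the largest fitted fall of the 9 at 3 d and the largest in the young pair (-0.79), while in the aged pair Ermn (-0.70) and Mal (-0.69) were further down than Opalin (-0.59). It was at 9.61 in young and 9.77 in aged naive rats, 8.81 and 9.18 at 3 d, and 9.38 and 9.63 at 14 d. Both 3 d arrays lay below all the others, and at 14 d the aged array was within the naive range. It fell by 0.69 ± 0.12 at 3 d, a 1.62-fold change (adjusted p = 0.00677).

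Hapln2, a link protein that ties hyaluronan to proteoglycans at nodes of Ranvier, went in opposite directions in the ages. It was at 9.22 in young and 9.31 in aged naive rats, 8.73 and 9.91 at 3 d, and 8.42 and 9.66 at 14 d. The young stroke arrays lay below both naive arrays and the aged stroke arrays above them. The fitted common change at 3 d, 0.06 ± 0.26 (adjusted p = 0.894), therefore describes neither age.

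At 14 d, 1 of 9 genes (Mog) was lower than in naive tissue with limma, where 11.4% of all tested genes were lower and 25% passed in either direction, and none was higher. The median change was -0.20, against -0.05 over all genes. In 5 of 9 (Mbp, Mog, Mobp, Cnp and Ermn) both 14 d arrays lay below both naive arrays, and in none above. Over all genes 37.9% lay below and 28.3% above, 66.2% in either direction, so these counts are near the background. The median was -0.20 over the young arrays and -0.19 over the aged ones. The call of Mog ended without a filter, with quantile normalization and without the young naive, aged naive, young 3 d, aged 3 d or aged 14 d array, with adjusted p between 0.00436 and 0.248 over 13 alternatives. Over all genes 1491 were higher and 1243 lower, and with arrays brought to equal medians 1336 were higher and 1686 lower. The comparisons at 3 d and 14 d share the naive arrays.

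**Figure D2:**
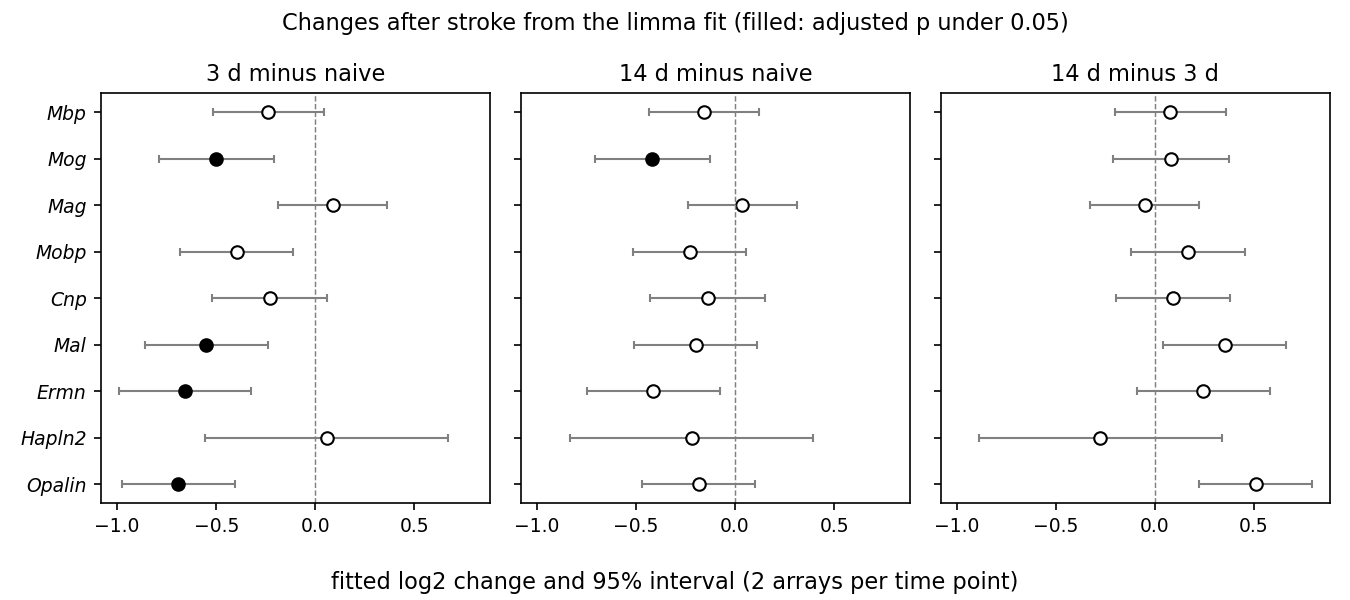
Fitted log2 change (horizontal axis) of each gene (vertical axis) in 3 comparisons, with bars for the 95% interval of the limma fit over 6 arrays and filled points where the adjusted p was under 0.05. Opalin, Ermn, Mal and Mog are filled at 3 d, Mog is filled at 14 d, and no gene is filled between 14 d and 3 d.

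The direct comparison of 14 d with 3 d does not use the naive arrays as a baseline. No gene of the 9 passed with limma (2 had an unadjusted p under 0.05), where 3.16% of all tested genes passed. Opalin changed by 0.51 ± 0.12, a 1.42-fold change (adjusted p = 0.0878), higher in both ages, and Mal by 0.35 ± 0.13 (adjusted p = 0.324), higher in both ages. Opalin, Ermn and Mbp had both 14 d arrays above both 3 d arrays, as did 12.5% of all genes, while 21.9% lay below and 34.3% did not overlap in either direction. Of the 9 genes 7 had a fitted change above 0, with a median of 0.09 against -0.03. Opalin passed with trended and robust variances (adjusted p = 0.0167).

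The comparison of aged with young rats over all 3 time points gave no call among the 9 genes or among all 10947 with limma, where 3 of the 9 and 852 of all genes had an unadjusted p under 0.05. These 3 were Hapln2 (0.84 ± 0.21; SE, 3 arrays per age), Mal (-0.34 ± 0.11) and Opalin (0.26 ± 0.10), with adjusted p = 0.630, 0.631 and 0.631. Aged arrays were above all young arrays for Mag and Hapln2, as they were for 1.74% of all genes, with 1.96% the other way and 3.71% in either direction. Mal was lower in aged rats at all 3 times, by 0.13 in naive rats and by 0.41 and 0.46 at 3 d and 14 d. Opalin, Mobp, Mag and Hapln2 were higher in the aged array of each pair, and Ermn was higher in aged naive rats by 0.37.

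The age difference of Hapln2 was 0.09 between the naive arrays, 1.18 at 3 d (2.27-fold) and 1.24 at 14 d (2.36-fold). Of all tested genes, 99.9% had a smaller or equal age difference at 3 d and 99.7% at 14 d. Measured from the naive array of the same age, young rats changed by -0.49 at 3 d and -0.79 at 14 d, and aged rats by 0.60 and 0.36. With 1 array for each age and time, this age difference of the response was not tested. The other 8 genes had age differences of the response between -0.43 and 0.22 at the 2 times.

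**Figure D3:**
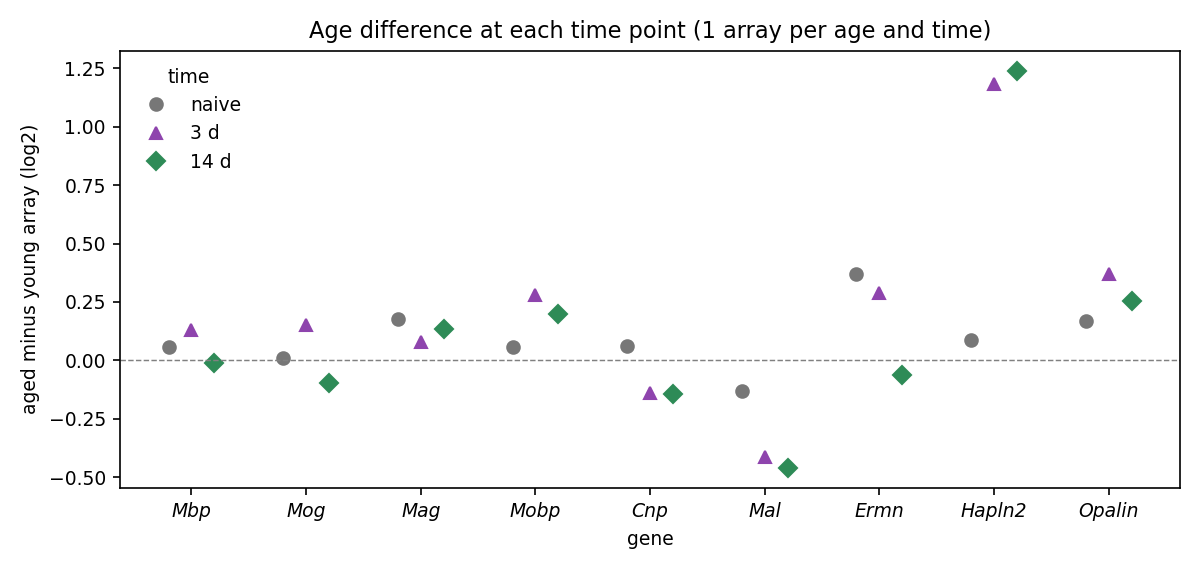
Aged minus young log2 value (vertical axis) of each gene (horizontal axis) between the naive (circles), 3 d (triangles) and 14 d (diamonds) arrays, 1 array per age and time and no error bar. Hapln2 reaches 1.18 and 1.24 after stroke from 0.09 in naive rats, while Mal lies below 0 at each time.

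The genes varied together only in part. Over the 6 arrays, the Pearson correlation of each gene with the mean of the other 8 was 0.99 for Mobp, 0.96 for Mbp, 0.91 for Ermn, 0.90 for Opalin and 0.85 for Mog. It was 0.50 for Cnp, 0.20 for Mal, 0.05 for Hapln2 and -0.13 for Mag. These values are descriptions over arrays that share their groups. Among 5516 tested genes with a range of at least 0.5, those closest to the mean profile of the 9 were Or2ak6c (r = 0.990), Insc (0.988), P2rx6 (0.984), Timm10 (0.969) and St18 (0.968). Several of these had low values: Or2ak6c lay at 5.94 to 6.84, below the median of every array. P2rx6 (6.65 to 7.21) and Timm10 (6.59 to 7.18) lay near or below the medians, and Insc was at 7.21 to 7.75. St18, a zinc finger transcription factor, was at 8.02 in young and 8.34 in aged naive rats, 7.53 and 7.90 at 3 d, and 7.80 and 8.02 at 14 d.

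Other genes of mature oligodendrocytes moved both ways at 3 d. Of 26 listed genes 21 were tested, and 7 fell and 5 rose, where 7.87% of all tested genes were lower and 14.4% higher. With arrays brought to equal medians 8 fell and 3 rose, and with quantile normalization 6 and 3. Car2 (carbonic anhydrase 2, abundant in oligodendrocytes) fell by 1.05 ± 0.17 at 3 d, and Gpr37 (a receptor that restrains maturation) by 0.56 ± 0.17. The other genes that fell were Tspan2, Plekhb1, Ppp1r14a, Nipal4 and Tppp, by 0.48 to 0.74, and those that rose, named after their values were seen, were Klk6 (0.89), Gsn (0.59), Adamts4 (0.53), Tf (0.50) and Apod (0.41). Klk6 (a protease), Gsn (gelsolin, an actin-severing protein), Tf (transferrin) and Apod (a lipid carrier) are also made by other cells. At 14 d Car2 and Tppp were lower, by 0.70 ± 0.17 and 0.44 ± 0.12, and Cldn11, the tight junction protein of myelin, and Gsn were higher, by 0.65 ± 0.12 and 0.48 ± 0.14, where 11.4% of all genes were lower and 13.6% higher. With equal medians this split of 2 lower and 2 higher became 5 lower and 1 higher. Of the 12 called at 3 d and the 4 at 14 d, dropping the aged naive array left counts of 1 and 0, and dropping the young naive array 3 and 2. The count at 3 d was 4 with no young and 5 with no aged 3 d array, and that at 14 d was 2 with no aged 14 d array. The call of Gpr37 was lost when any naive or 3 d array was dropped (adjusted p = 0.0664 to 0.404), without a filter (0.0629) and with quantile normalization (0.0552), that of Car2 at 3 d with no aged naive array (adjusted p = 0.0722), and that of Car2 at 14 d with that array or the aged 14 d array dropped (changes of -0.47 and -0.43, adjusted p = 0.247 and 0.0954). The 3 d change of Gpr37 was -0.35 with no aged naive array. The names of the 7 that fell at 3 d, other than Car2 and Gpr37, were also taken after their values were seen.

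Cldn11 is also a gene of the barrier cells of the meninges. Its levels were 11.19 in young and 11.17 in aged naive rats, 11.51 and 11.47 at 3 d, and 11.81 and 11.85 at 14 d, and the groups did not overlap. A list of 8 meningeal and fibroblast genes was written after values were seen, so its counts are a description and not a test. Of the 8, 5 rose at 3 d and 8 at 14 d, where 14.4% and 13.6% of all tested genes were higher. Lum was at 5.58 in young and 5.33 in aged naive rats, below the 40th percentile of these arrays (6.55 and 6.56). It passed the filter only through the stroke arrays. The mean level of the list was 7.68 to 7.82 on the naive and 8.41 to 8.73 on the 3 d arrays. It was 9.93 to 10.10 on the 14 d arrays. The part of these genes in the change of Cldn11 was not tested.

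Enzymes and carriers of myelin lipids moved both ways. Of 9 listed genes 6 were tested, and 3 rose at 3 d: Cers2 (the ceramide synthase of very long chains, 0.79 ± 0.14), Gltp (a glycolipid transfer protein, 0.67 ± 0.12) and Aspa (aspartoacylase, which frees acetate for lipid synthesis, 0.49 ± 0.14). Of all tested genes 14.4% were higher at 3 d and 13.6% at 14 d. At 14 d the same 3 were higher, and Fa2h, which hydroxylates myelin fatty acids, fell by 0.53 ± 0.12. The other changes did not pass and were below 0. They were -0.35 for Ugt8, -0.27 for Fa2h and -0.20 for Abca2 at 3 d. At 14 d they were -0.33 for Ugt8 and -0.04 for Abca2. The median of the list was 0.14 at 3 d and 0.19 at 14 d. Dropping the aged naive array left 0 of the 6 at either time, and dropping the young naive array left 1 at each. With no young 3 d array 0 passed at 3 d, and with no aged 14 d array 1 passed at 14 d. Aspa at 3 d was also lost without a filter, with equal medians and with no term for age (adjusted p = 0.0587, 0.0560 and 0.107), and Cers2 at 14 d with no term for age (0.0529).

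At the node of Ranvier and its borders, genes fell or did not pass. Of 11 listed genes 10 were tested, 2 were lower at 3 d and 3 at 14 d, and none was higher, with medians of -0.32 and -0.40. Of all tested genes 7.87% were lower at 3 d and 11.4% at 14 d. With equal medians 5 were lower at 14 d. Cntnap1 (the axonal protein Caspr, which anchors myelin loops) was at 11.01 in young and 10.79 in aged naive rats, 10.40 and 10.30 at 3 d, and 10.33 and 9.96 at 14 d, and fell by 0.55 ± 0.13 and 0.76 ± 0.13. Omg, the oligodendrocyte myelin glycoprotein, fell by 0.49 ± 0.12 and 0.54 ± 0.12, and Ank3 (ankyrin-G, the scaffold of the node) by 0.46 ± 0.12 at 14 d. Several of these genes are made by neurons. Of 8 neuronal markers 2 fell at 3 d and 6 at 14 d, with a mean level of 11.43 to 11.46 on the naive, 11.06 to 11.10 on the 3 d and 10.84 to 10.98 on the 14 d arrays, and their part was not tested. Dropping either naive array left 0 of the 10 genes at either time, and dropping the young or the aged 3 d array left 0 or 1 at 3 d.

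Genes of oligodendrocyte precursors rose in part. Of 11 listed genes 9 were tested, 2 rose at 3 d and 5 at 14 d, and none fell against naive tissue, with medians of 0.32 and 0.50. Between 14 d and 3 d none was higher and 1 was lower, with a median of -0.01. Among all tested genes 14.4% were higher at 3 d and 13.6% at 14 d. Pdgfra, the growth factor receptor of precursor cells, was at 9.15 in young and 9.18 in aged naive rats, 9.77 and 9.28 at 3 d, and 10.14 and 10.17 at 14 d. Its 14 d arrays lay above all others, and it rose by 0.99 ± 0.16 at 14 d, a change of 0.36 ± 0.16 at 3 d not passing. Cspg4 (the NG2 proteoglycan) rose by 0.87 ± 0.12 at 3 d and 0.83 ± 0.12 at 14 d, and C1ql1, a complement-related secreted protein, by 0.54 ± 0.12 at 14 d. Vcan (versican, a matrix proteoglycan), named after its values were seen, rose by 1.25 at 3 d and 0.53 at 14 d, and fell by 0.72 from 3 d to 14 d, and Gpr17, a receptor of cells committed to the lineage, rose by 0.50 at 14 d. The other 4 tested genes did not pass at either time. Sox6, Neu4 and Ptprz1 changed by 0.24, 0.18 and 0.07 at 14 d, and Matn4 by -0.18. At 3 d Sox6 and Ptprz1 changed by 0.38 and 0.32, and Neu4 and Matn4 by -0.15 and -0.18. Dropping either naive array left 1 of the 9 at 14 d. The 14 d call of Pdgfra was lost with no young naive array (adjusted p = 0.0554) and that of Cspg4 with no aged naive array (adjusted p = 0.0547). The fall of Vcan from 3 d was lost with either naive or the aged 3 d array dropped.

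Pdgfra is also made by fibroblasts and Cspg4 by pericytes. The meningeal and fibroblast list, written after values were seen, had its highest mean on the 14 d arrays, where Pdgfra was also highest. A list of 7 pericyte and smooth muscle genes was also written after values were seen, so its counts are a description and not a test. Of the 7, 3 rose at 3 d and 2 at 14 d. Among all tested genes 14.4% and 13.6% rose at these times. The median of the 7 was 0.47 at 3 d but 0.10 at 14 d, and Anpep changed most (2.65 and 1.79). Their mean level was 8.38 to 8.51 on the naive, 8.995 to 9.37 on the 3 d and 8.85 to 9.04 on the 14 d arrays. Their part in the precursor genes was not tested.

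Newly formed oligodendrocytes are marked by Enpp6, a choline phosphodiesterase, and it was at 7.75 in young and 7.995 in aged naive rats, 7.86 and 7.72 at 3 d, and 8.46 and 8.75 at 14 d. Both 14 d arrays lay above all the others. It rose by 0.73 ± 0.14 against naive (adjusted p = 0.0100) and by 0.82 ± 0.14 against 3 d (adjusted p = 0.0261), where 1.34% of all tested genes were higher. The call against 3 d was lost with either naive array dropped (adjusted p = 0.0667) and with the aged 3 d array dropped (adjusted p = 0.204). The call against naive was lost with the young or the aged naive array dropped (adjusted p = 0.0946 and 0.0721). Of 7 tested genes of the list, out of 8, 2 rose at 3 d (Itpr2, a calcium channel, 0.70 ± 0.14, and Cnksr3, named after its value was seen, 0.44) and 3 at 14 d (Enpp6, Itpr2, 0.78 ± 0.14, and Bmp4, a signal that restrains maturation, 0.78 ± 0.19), where 14.4% and 13.6% of all tested genes were higher. The rest of the list did not pass at 14 d: Cnksr3 and Rras2 changed by 0.41 and 0.28, and Bcas1 and Fyn by -0.06 and -0.09. The median of the list was 0.28 at 3 d and 0.41 at 14 d, but -0.004 between 14 d and 3 d. Bmp4 was at 7.58 in young and 7.47 in aged naive rats, 7.67 and 8.09 at 3 d, and 7.97 and 8.65 at 14 d, the aged 14 d array being the highest. Its change at 14 d was 0.45 with no aged naive array (adjusted p = 0.225) and 0.52 with no aged 14 d array (adjusted p = 0.0804). Dropping the aged naive array left 0 of the 7 at either time, and dropping the young naive array left 0 at 3 d and 1 at 14 d. At 3 d the count was 0 with no young and 1 with no aged 3 d array, and it was 1 without a filter, with quantile normalization, with equal medians and with no term for age. Bmp4 at 14 d was lost with no term for age (adjusted p = 0.0518).

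Transcription factors of the lineage gave no call. Of 10 listed factors 4 were tested with limma, and 0 passed in any comparison. Dropping the young 14 d array gave 1 call at 14 d, and trended and robust variances called Olig1 lower at 14 d than at 3 d (-0.41 ± 0.12 and adjusted p = 0.166 as fitted, 0.0479 with those variances). At 14 d the changes were -0.29 ± 0.15 for Nkx6-2 (adjusted p = 0.196), -0.27 ± 0.12 for Olig1 (adjusted p = 0.143) and -0.14 ± 0.14 for Sox8 (adjusted p = 0.529). Olig2, Myrf and Nkx2-2 were not analysed here.

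Mag and Omg, with Nogo (Rtn4), are the myelin proteins that act on axons through shared receptors. Of 8 listed genes of Nogo and receptors 7 were tested, and at 14 d Rtn4 fell by 0.64 ± 0.16. Lrp1, a receptor that binds Mag, rose by 0.47 ± 0.12 and Tnfrsf19, the co-receptor TROY, by 0.43 ± 0.12. The other 4 receptor genes went down without passing: Rtn4r and Rtn4rl1 changed by -0.37 each, Rtn4rl2 by -0.27 and Ngfr by -0.16. The median of the list was -0.27. Of all tested genes 11.4% were lower and 13.6% higher at 14 d, 25% in either direction. With equal medians 2 of the 7 were lower and 1 higher. None passed at 3 d, and 2 did with either 14 d array dropped. Lrp1 and Rtn4 are expressed by many cell types. At 14 d, 0 passed when either the aged naive array or that of aged rats at 14 d was dropped, and 1 with the young naive array dropped. The change of Rtn4 was -0.42 with no aged naive array. The call of Tnfrsf19 was lost with any 1 array dropped. It was also lost without a filter, with equal medians and with no term for age (adjusted p = 0.0594, 0.0586 and 0.0892). Among the Schwann cell genes, Prx, Egr2 and Drp2 did not pass. Pmp2, which glia of the brain can also make, rose by 1.76 at 3 d and 0.94 at 14 d. Pmp2 was at 5.51 in young and 5.72 in aged naive rats, 7.47 and 7.27 at 3 d, and 6.62 and 6.49 at 14 d. On the naive and 14 d arrays it lay below the 40th percentile, so it passed the filter only through the 3 d arrays. The mean of the 4 genes was 7.20 on both naive arrays and 7.28 to 7.62 on the stroke arrays, near the array medians. This mean combines unlike levels: Drp2 was at 9.02 to 9.45, and Pmp2 at 5.51 and 5.72 on the naive arrays. At 3 d the fitted changes of Prx, Egr2 and Drp2 were -0.15, -0.10 and -0.07.

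**Figure D4:**
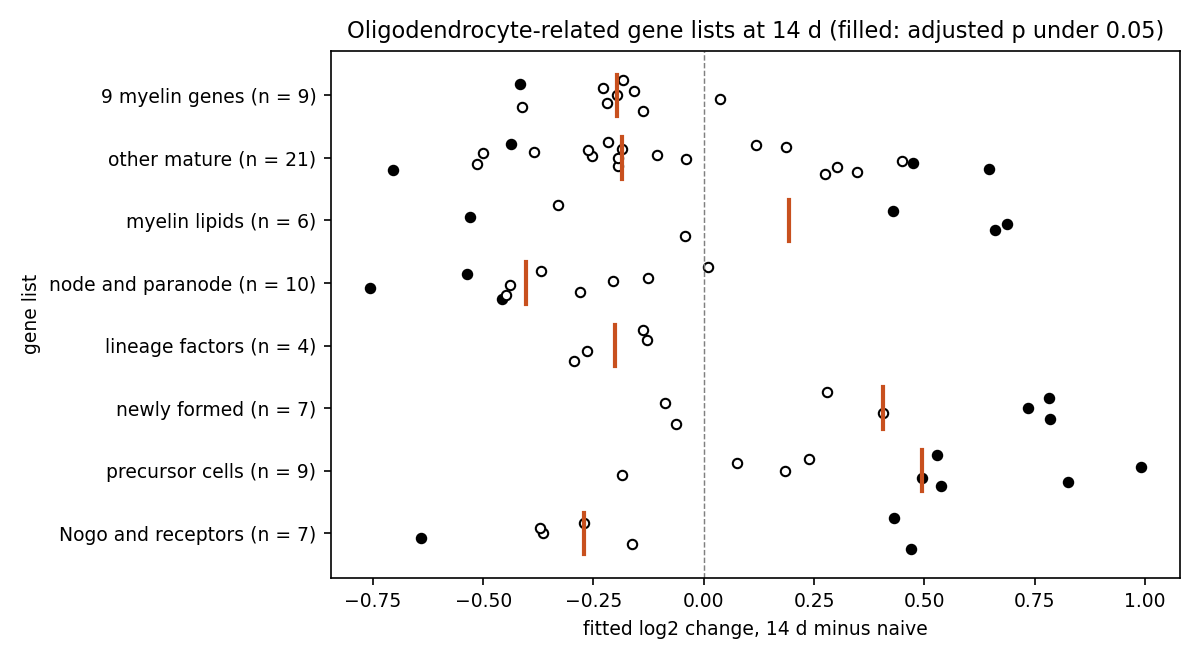
Fitted log2 change at 14 d against naive (horizontal axis) of each tested gene in 8 lists (vertical axis), filled where the adjusted p was under 0.05, with a vertical bar at each list's median. The 9 myelin genes have a median of -0.20 and the node genes of -0.40, while newly formed oligodendrocyte and precursor genes have medians of 0.41 and 0.50.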

How the data were processed

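Total RNA pools of 15 to 23 animals were hybridised to 6 arrays, 1 for each age and time. The deposited values, 1 for each probe set on an array, were taken as log2, a base judged from their range only. The submitters' processing notes name R 2.14.0 and affy. For normalization, summarisation and build: not given in the sources used here. Batch and group cannot be told apart. With 1 pool for each age and time, p-values do not measure the spread between pools or animals of a group. They rest on how far the 2 ages depart from a common time course, moderated by the spread over all genes.

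Of 28826 probe sets 15209 had 1 symbol in the platform annotation, 306 several and 13311 were unnamed here, and 15178 matched RefSeq (GRCr8). Probe sets reaching the 40th percentile of an array on at least 1 array were kept, the highest mean standing for a gene, which left 10947 genes. Additive effects of time and age were fitted with limma 3.58.1 (R 4.3.3; 2 residual and 5.56 prior degrees of freedom), with Benjamini-Hochberg adjustment over all genes at 0.05. Opposite changes in the 2 ages enter the error.

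The members, lists and tests were chosen with earlier results of these data known. The rule named all 9 members, 3 genes per related list with the largest change at 14 d, and the 5 genes closest to the members' mean profile. The fit was tested on simulated arrays (20 draws, 200 of 10947 genes changed, 14 d against naive). It called 4.55% of genes changed by 0.5, 85.3% by 1 and 99.7% by 2, with 4.69% of calls false. In the data 25% of all tested genes passed at 14 d. The adjustment is stricter when fewer genes change, so these shares do not give the power for these data.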

Additional observations from a re-analysis of the deposited data

Results flagged for a closer look

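Hapln2 moved down in young and up in aged rats after stroke. The aged change exceeded the young change by 1.09 at 3 d (0.60 against -0.49) and by 1.15 at 14 d (0.36 against -0.79), on the log2 scale. Mog moved in opposite directions from 3 d to 14 d, by 0.21 in young and -0.04 in aged rats, a difference of -0.25. Each rests on 1 array per age and time, and the differences were not tested.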

How the results depend on the processing

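The number of the 9 genes called at 3 d stayed within 3 to 6 of the reported 4 under the 7 alternatives that keep all arrays, and ranged from 0 to 5 when 1 array was left out. At 14 d the reported 1 became 0 without a filter and with quantile normalization and 2 with equal medians and with trended and robust variances, and ranged from 0 to 2 with 1 array left out. Between 14 d and 3 d the reported 0 became 1 with trended and robust variances. Between the ages it was 0 under all 13 alternatives. Leaving out an array leaves 1 residual degree of freedom. Among the genes named by the rule, no called change turned its direction. Other genes named in the text were not checked for this. The alternatives for the related lists were chosen after seeing the data. Mature oligodendrocyte genes called at 14 d went from 4 to 2 without a filter, 8 with a stricter filter and 11 with trended and robust variances. The share of all genes called then went from 25% to 16%, 33.7% and 31.5%. At 3 d the count went from 12 to 7 without a filter, and the share of all genes from 22.2% to 14.2%. Trended and robust variances also called 5 mature oligodendrocyte genes and 1 lineage factor between 14 d and 3 d. With them 5 node genes were called at each time and 3 receptor genes at 3 d. Of all genes they called 28.8% at 3 d, 31.5% at 14 d and 4.56% between 14 d and 3 d. In simulated arrays with 200 changed genes, 4.55% of changes of 0.5 were called, a share that does not carry over to these data. No paired analysis was possible because each group is 1 array, with no replicate number in the labels to serve as a block. The fit itself compares times within each age, through its term for age.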

Other observations

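The opposite response of Hapln2 was shared by few genes. With a limit chosen after the values were seen, a fall of over 0.25 in young and a rise of over 0.25 in aged rats at both 3 d and 14 d, 12 of 10947 genes met it. Among them were Hapln2, Meg3 (a noncoding RNA of neurons; -0.40 and -0.51 in young, 0.61 and 0.50 in aged rats), Celsr3 (a cadherin of axon guidance; -0.29 and -0.53, 0.41 and 0.28) and Nmnat1 (an enzyme of nuclear NAD synthesis; -0.46 and -0.53, 0.51 and 0.88). None of the other 8 myelin genes was among them. These values rest on 1 array per age and time and were not tested.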
